A study of Mus musculus with 32 samples.

Results

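Rmrp and Rpph1 are the RNA subunits of RNase MRP and RNase P, and their contacts with chromatin were followed in RADICL-seq, a proximity ligation method in which an RNA and the DNA near it are joined by a bridge adapter in crosslinked nuclei and sequenced as a pair of short tags. Both were chosen by name and matched by Ensembl identifier (ENSMUSG00000088088.1 and ENSMUSG00000092837.1) among the transcripts to which the RNA tags had been assigned. They are 2 of 17784 transcripts, and hold 12052 (Rmrp) and 82 (Rpph1) of 25231081 distinct interactions in 15 libraries. The libraries fall into 6 groups. Mouse embryonic stem cells (mESC, the R08 line) crosslinked with 1% formaldehyde (mESC 1FA) or with 2% (mESC 2FA) have 3 libraries each. R08 cells that received actinomycin D, an inhibitor of transcription, for 4 h (5 µg/ml) and were then crosslinked with 1% formaldehyde (mESC ActD4) have 2. In the NPM libraries the 1% crosslinks were reversed and proteins digested before the RNA was ligated, so that the pairs joined do not depend on protein, and there are 2 from R08 cells (mESC NPM) and 2 from Oli-neu (mOPC NPM). Oli-neu, a line derived from mouse oligodendrocyte progenitor cells, crosslinked with 1% formaldehyde (mOPC 1FA) has 3. Each cell type is thus represented by a single line.

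RNase P removes the leader of precursor tRNAs, and RNase MRP cuts the precursor of ribosomal RNA in the nucleolus. Both RNAs are made by RNA polymerase III, share most of their protein subunits (Pop and Rpp proteins) and fold around a related catalytic core. Because ribosomal RNA is transcribed and processed in the nucleolus, an RNA engaged there can lie close to the ribosomal RNA genes.

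The transcripts are shown to locate the RNA tags on them, from the RefSeq models on GRCm38 (mm10). Rmrp lies at chr4:43492785-43493059 on the minus strand, where a noncoding RNA of 275 nt is annotated, and the protein-coding gene Ccdc107 overlaps it on the opposite strand. Rpph1 lies at chr14:50807447-50807771 on the minus strand, is 325 nt long, and overlaps Ccnb1ip1 on the same strand. Sequences are written 5′ to 3′, for Rpph1 from position 26 to 325, and the 27 bases in capitals are centred on the position at which RNA tags were most frequent: position 261 of Rmrp, with 2143 of its 12052 tags, and position 144 of Rpph1, with 13 of its 82.
Rmrp: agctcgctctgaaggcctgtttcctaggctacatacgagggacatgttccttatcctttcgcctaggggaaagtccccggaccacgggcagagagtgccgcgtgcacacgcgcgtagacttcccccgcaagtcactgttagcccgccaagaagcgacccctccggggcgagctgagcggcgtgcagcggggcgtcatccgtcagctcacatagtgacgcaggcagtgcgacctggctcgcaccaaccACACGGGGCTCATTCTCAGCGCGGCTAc
Rpph1: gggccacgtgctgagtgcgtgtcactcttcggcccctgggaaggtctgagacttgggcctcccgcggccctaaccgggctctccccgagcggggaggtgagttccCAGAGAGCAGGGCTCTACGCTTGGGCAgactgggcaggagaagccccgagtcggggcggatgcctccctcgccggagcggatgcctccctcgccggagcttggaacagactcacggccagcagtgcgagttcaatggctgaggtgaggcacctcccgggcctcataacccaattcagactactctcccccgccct
In Rmrp the capitals end just before the last base of the RNA, and in Rpph1 they lie in the middle of it.

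The libraries held between 251802 and 2832717 distinct interactions. All of them belong to pairs, each of an RNA with 25 kb of DNA (a bin), that the authors had called significant, and a pair was called on the replicates of a group together. Each of the listed pairs of Rmrp and Rpph1, between 33 in the mESC NPM group and 136 in the mOPC 1FA group, carried a single adjusted p. Replicates therefore share a list of bins and differ in the number of interactions within it, and an RNA without a listed pair is given as listed at 0. Markers of embryonic stem cells summed to between 1367 and 2300 CPM (interactions per 1000000 of the library) in the mESC libraries. In the mOPC libraries they summed to between 1.81 and 37.8. Esrrb, with 26927 of the 32852 interactions of these 8 markers over all libraries, carried most of the sum in mESC. Markers of oligodendrocyte progenitors summed to between 2074 and 3140 in mOPC and to between 3.97 and 110 in mESC, where 1 to 6 of the 8 were listed. Ptprz1 and Cspg4 carried most of that sum in mOPC. Pdgfra went the other way, at 2.999, 22.9 and 24.4 CPM in mESC 1FA against 1.36, 3.80 and 2.001 in mOPC 1FA, and Nkx2-2 was listed at 0 in mOPC 1FA.

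Rmrp was among the RNAs with most contacts outside their own chromosome, whereas Rpph1 was sparse. By contacts with other chromosomes (trans), with replicates pooled, Rmrp ranked 4 of 1048 transcripts in mESC 1FA, 4 of 643 in mESC 2FA, 5 of 143 in mESC ActD4, 2 of 2089 in mESC NPM, 5 of 369 in mOPC 1FA and 11 of 489 in mOPC NPM. Rpph1 ranked between 152 and 317 in the 4 groups in which it was listed. By all interactions Rmrp ranked between 13, in mESC NPM, and 652, in mESC 2FA.

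Capture of Rmrp, its CPM, reached 290, 433 and 259 in the stem cells at 1% formaldehyde, and 247, 398 and 290 at 2%. After actinomycin D it reached 1815 and 1835, and with proteins removed 2582 and 1455. Oli-neu libraries gave 298, 331 and 636 (mOPC 1FA) and 550.0 and 702 (mOPC NPM). The 1FA and 2FA libraries of the stem cells overlapped, and the ActD4 and NPM libraries of the stem cells lay above every 1FA library of either line. Groups that do not overlap were common, with 75.9% of transcripts for ActD4 and 70.8% for NPM against mESC 1FA. In interactions, these values rest on 462 to 1272 per library. CPM is taken over listed interactions alone. By the paper's counts, the significant ones were a smaller part of all uniquely mapped interactions in ActD4 and NPM than in 1FA of the same line. How much of the higher CPM goes with that smaller base was not tested. In bulk libraries fewer RNA molecules and fewer contacts per molecule cannot be told apart.

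**Figure D1:**
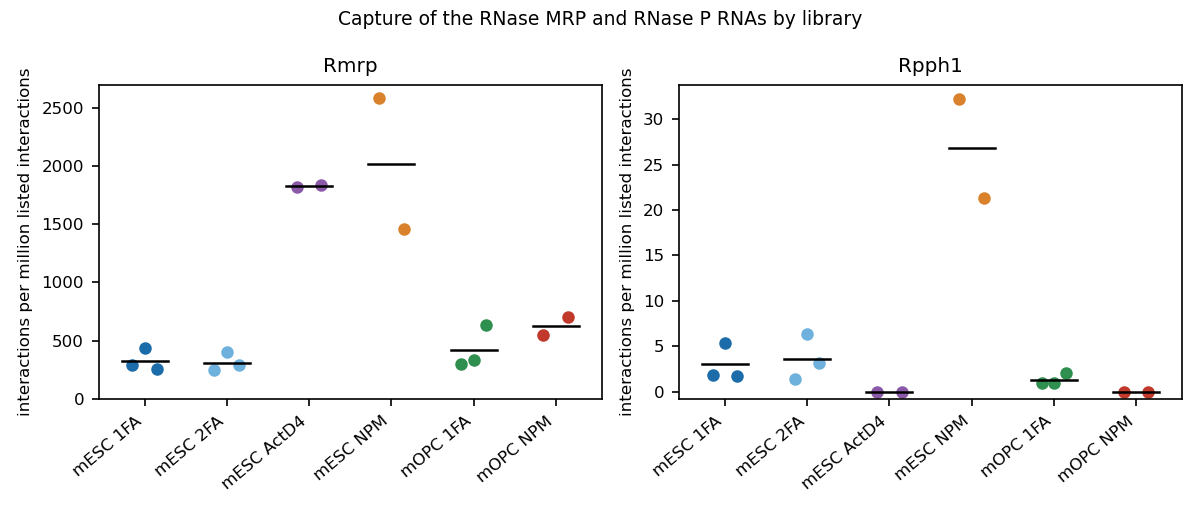
CPM of Rmrp and of Rpph1 in each library, by group, on linear axes, with points for libraries and horizontal bars for group means. The mESC ActD4 and mESC NPM libraries of Rmrp sit between 1455 and 2582, above all others, and Rpph1 is listed at 0 in mESC ActD4 and mOPC NPM.

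Capture was compared with limma on log2 CPM scaled by TMM, a trimmed mean that centres the bulk of the transcripts, and tests were two-sided with Benjamini-Hochberg adjustment over all transcripts tested. Replicates of a group share their listed pairs, so SE and p do not measure how far the listing itself would vary. They can therefore be too small. The log2 differences, like CPM, are relative to the listed interactions of a library. After actinomycin D, Rmrp rose by 2.30 on the log2 scale (SE 0.15, adjusted p = 3.15e-13), against a median of -0.26 over all transcripts, in a comparison in which 65.6% of the transcripts were called. Between 2% and 1% formaldehyde it differed by -0.13 (SE 0.18, adjusted p = 0.813), and 0.0305% of transcripts, 3 in number, were called. With the replicate number as a block, 568 were called and Rmrp was not (-0.13, adjusted p = 0.400). Between the lines at 1% formaldehyde it was higher in mOPC 1FA by 0.75 (SE 0.27, adjusted p = 0.0286), with 78.5% of transcripts called and a median of -0.27. That call is not firm: the groups overlap, and the adjusted p became 0.0709 without mESC 1FA replicate 1, 0.108 without replicate 3 of that group, 0.0560 without mOPC 1FA replicate 3 and 0.336 when libraries were scaled by their totals.

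Removal of proteins before ligation went with a higher capture of Rmrp in the stem cells and not with a called change in the progenitor line. In mESC NPM it rose by 1.90 over mESC 1FA (SE 0.24, adjusted p = 8.12e-05, with 55% of transcripts called). In mOPC NPM it differed from mOPC 1FA by -0.18 (SE 0.27, adjusted p = 0.577, with 58.6% called), and the sign of that difference depended on the scaling, being 0.65 (adjusted p = 0.0713) by library totals, which moved the median of all transcripts by 0.83. The effect of NPM was lower in mOPC than in mESC by 2.23 (interaction term -2.23, SE 0.44, adjusted p = 0.00252, with 34.8% called). Between the NPM libraries themselves, Rmrp was lower in mOPC (-1.21, SE 0.25, adjusted p = 0.000317, with 55.9% called), a call that was lost without mOPC NPM replicate 1 (adjusted p = 0.0707). Counted without each RNA's own 25-kb bin, the rise in mESC NPM was 5.02 (adjusted p = 0.000225) and the difference of mOPC NPM from mOPC 1FA 3.50 (adjusted p = 0.00129), and neither the interaction term (-0.85, adjusted p = 0.231) nor the difference between NPM libraries (-0.34, adjusted p = 0.620) passed the test. In that count, 7973, 6822, 9112 and 1673 transcripts remained to be tested. With every line counted, copies included, the rise in mESC NPM was 3.21.

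Rpph1 gave few interactions: 5, 13 and 5 (mESC 1FA), 3, 13 and 8 (mESC 2FA), 14 and 13 (mESC NPM), and 2, 2 and 4 (mOPC 1FA). It was listed at 0 in both mESC ActD4 and both mOPC NPM libraries. The mESC ActD4 libraries were the smallest of all, at 251802 to 418781 interactions, so no loss of so sparse an RNA is read from the 0 there. In CPM, the mESC NPM libraries held 32.2 and 21.3 and the mESC 1FA libraries 1.87, 5.32 and 1.77, with no overlap. By limma it rose in mESC NPM by 2.58 on the log2 scale (SE 0.50, adjusted p = 0.00114). Fits were also run for mOPC NPM against mESC NPM and for the interaction term of NPM and line. Listing was decided on pooled replicates, and Rpph1 was listed at 0 in both mOPC NPM libraries. Those 2 results are thus set by the listing and by the prior count added before taking logs, and no fold or p is read from them here. In the remaining comparisons it was too sparse to be tested.

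The other RNAs and genes of the pathway were taken from lists, described here by counts in the same fits. The counts include transcripts listed at 0 in a group, whose calls follow from the listing. Over all transcripts tested, 23.7% rose and 41.9% fell after actinomycin D, 26% and 28.9% in mESC NPM, and 33.5% and 25.1% in mOPC NPM, while 33.9% were higher and 44.6% lower in mOPC 1FA than in mESC 1FA. Of 14 nucleolar RNAs of ribosomal RNA processing, 8 were listed. After actinomycin D, 5 of the 6 tested rose and 1 fell, with a median of 2.41 against -0.26 over all transcripts. Snord118, the U8 RNA required for processing of the large subunit RNAs, rose by 3.79, Rnu3a, a U3 RNA that guides early cuts of the precursor, by 2.96, and Snord13 by 2.30, beside 2.30 for Rmrp. In mOPC 1FA against mESC 1FA, 5 of 6 were lower, with a median of -2.11, and none was higher. Rmrp was higher in that comparison, by the call described above as not firm. Of the nucleolar RNAs, 2 rose and 1 fell of 6 in mESC NPM, and 3 fell and none rose of 5 in mOPC NPM. The effect of NPM was lower in mOPC than in mESC for 5 of 6, with a median of -2.61 against 0.07 over all transcripts, of which 14% were called lower.

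Of 7 other RNAs made by RNA polymerase III, 3 were listed (Rn7sk, which restrains the elongation factor P-TEFb, and the Y RNAs Rny1 and Rny3), and none of 3 RNase P RNA-like genes was. After actinomycin D both that were tested rose, Rn7sk by 4.37 and Rny3 by 2.60. In mESC NPM all 3 rose, with a median of 3.11, and in mOPC 1FA both tested were higher than in mESC 1FA, Rn7sk by 5.75. For all 3 the effect of NPM was lower in mOPC than in mESC, with a median of -4.28, beside -2.23 for Rmrp.

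Transcripts of the protein subunits were listed for 10 of 11 genes. They held 2169 interactions in all, of which Pop1, the largest subunit, had 816. At 1% formaldehyde 3 of 5 were lower in mOPC than in mESC, among them Pop1 by 1.04, and 1 was higher, Rpp30 by 0.56. After actinomycin D 2 of 6 rose, Pop4 by 2.03 and Rpp25, listed at 0 in mESC 1FA, and 1 fell, Rpp40, listed at 0 in mESC ActD4. The calls of Rpp25 and Rpp40 thus follow from the listing. In mESC NPM 1 of 6 rose and none fell, and in mOPC NPM 2 of 4 rose, Pop1 by 1.06 and Pop4 by 1.80, and 1 fell.

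All 21 subunits and promoter factors of RNA polymerase III were listed. Of these, 7 rose and 6 fell of 20 after actinomycin D, and 5 rose and 7 fell of 20 in mESC NPM. In mOPC 1FA 2 were higher and 11 lower of 18, and none of 19 was called between 2% and 1% formaldehyde. Of 11 genes within 25 kb of Rmrp or Rpph1, 7 were listed, and in mESC NPM 6 of 7 rose, with a median of 1.83 against 0.05. After actinomycin D 2 of the 4 tested rose and none fell, and in mOPC 1FA all 3 tested were lower than in mESC 1FA. The effect of NPM was higher in mOPC than in mESC for 2 of 7 and lower for 2.

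The transcripts whose log2 capture was most like that of Rmrp over the 15 libraries were Tra2a (Pearson r = 0.804), Supt6 (0.730), Aars (0.728), Hnrnpul2 (0.713) and Srrm2 (0.685), among 3425 that averaged 100 or more interactions in a library. For Rpph1 they were Calu (0.829), P4ha1 (0.768), Serbp1 (0.766), Pum3 (0.764) and Eed (0.756) among 3426, with Rpph1 listed at 0 in 4 of the libraries. The libraries share groups and scaling, so these values describe a pattern over groups.

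Most contacts of Rmrp were in trans, by a narrower margin where proteins had been removed. The trans share of its interactions was 90.1%, 94.6% and 93.9% with 1% formaldehyde and 90.1%, 91.9% and 92.1% with 2% in the stem cells, and 89.9% and 90.0433% after actinomycin D. The mOPC 1FA libraries had 90.0%, 94.7% and 94.97%. The NPM libraries had 56.8% and 61.7% (mESC) and 51% and 64.0% (mOPC). Every NPM library lay below every other library. The 95% Wilson intervals of these shares have half-widths of 1.12 to 3.69 points and cover counting error only. A lower trans share in NPM is not particular to Rmrp. With replicates pooled, Malat1 had 92.4% in mESC 1FA and 14.3% in mESC NPM, and Rnu3a 96.7% and 77.9%, while Rpph1 kept 100%. The paper, too, reports that interactions within 1 kb were dominant in NPM and a small part of the 1FA sets.

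The share of Rmrp interactions with a DNA tag inside the Rmrp gene moved the opposite way to its trans share. Its mean was 5.85% ± 2.19 (SD, n = 3) in mESC 1FA, 8.39% ± 1.03 (SD, n = 3) in mESC 2FA, 5.84% ± 0.3005 (SD, n = 2) in mESC ActD4 and 6.45% ± 3.10 (SD, n = 3) in mOPC 1FA. It was 40.7% ± 3.59 (SD, n = 2) in mESC NPM and 42.5% ± 9.19 (SD, n = 2) in mOPC NPM. Within 1 kb of the RNA tag the shares were nearly the same, the means lying between 5.88% and 42.5%, so contacts close to the gene were contacts within it. Pooled over libraries, 151, 179, 75, 824, 159 and 644 interactions lay in the gene's own 25-kb bin (chr4:43475001-43500000) in the order mESC 1FA, 2FA, ActD4, NPM, mOPC 1FA and NPM.

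With both lines in 1 test, permuted within cell type, the trans share was 34.7 points lower in NPM than in 1FA (58.4% against 93.0%) and the own-gene share 35.4 points higher (41.6% against 6.15%). Each gave p = 0.02, the smallest that this two-sided exact permutation test allows, and 0.16 after adjustment over the 24 tests of shares, so neither passed the correction, although all 4 NPM libraries lay on the same side of all 6 libraries of 1FA. Within a line 2 libraries against 3 cannot give a p below 0.2. Counted once per pair of transcript and bin rather than by interaction, the difference in trans share was -0.0712 points (exact permutation p = 0.74), the own gene then counting as a single bin. With every line counted it was -60.6 points, and in bins listed in every group compared -54.5 points. Between 2% and 1% formaldehyde the trans share differed by -1.52 points (exact permutation p = 0.3) and between the lines, within condition, by -0.69 points (exact permutation p = 0.867), both with a p above the threshold. Both depended on which bins were counted: without the ribosomal bin the first was -12.4 points (exact permutation p = 0.1, the smallest possible), and in bins listed in every group compared the second was -15.2 points (exact permutation p = 0.117). In the 3 pairs of equal replicate number of 2FA and 1FA, the trans share was lower and the own-gene share higher in 3 of 3, by 1.52 ± 1.39 (SD) and 2.54 ± 1.24 points (paired exact permutation p = 0.25 for each, the smallest possible). All 82 contacts of Rpph1 were in trans, and it reached 20 interactions in no library, so its shares were not tested.

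**Figure D2:**
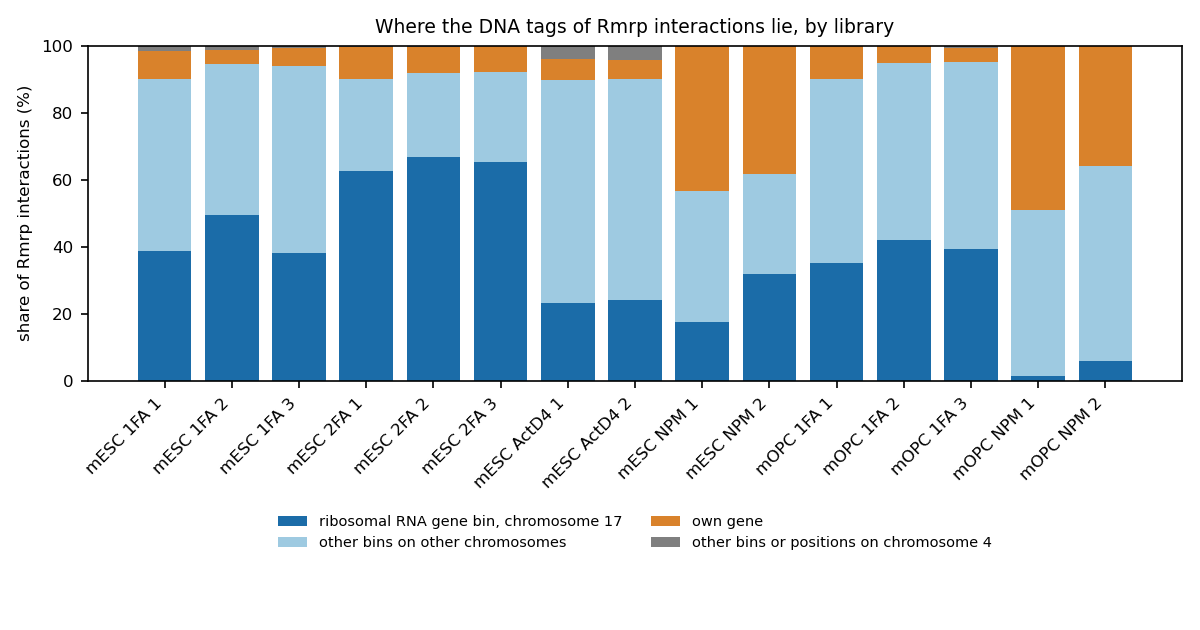
Share of Rmrp interactions (%) by the place of the DNA tag, as stacked bars for each of the 15 libraries: the ribosomal RNA gene bin of chromosome 17, other bins in trans, the Rmrp gene, and other positions on chromosome 4. The own-gene part takes 36.005% to 49% in the 4 NPM libraries and at most 10.0152% in all others.

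Pooled over all libraries, the single bin with most contacts of Rmrp was chr17:39825001-39850000, which holds ribosomal RNA gene sequence. In the NPM groups the bin of Rmrp itself held more, 824 against 483 in mESC NPM and 644 against 60 in mOPC NPM. In the ribosomal bin RefSeq places the 18S gene Rn18s-rs5 at chr17:39846354-39848202, and GENCODE M21 lists Gm26917, CT010467.1 (an rRNA), Gm42418 and AY036118. Ribosomal RNA genes are repeated arrays that the assembly holds only in part, so reads from other copies can be placed on this sequence. The bin was singled out after its values were known, and what follows is a description.

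Interactions of Rmrp with this bin numbered 301, 522 and 279 (mESC 1FA), 346, 541 and 476 (mESC 2FA), and 232, 293 and 499 (mOPC 1FA). They numbered 176 and 112 after actinomycin D, 199 and 284 in the stem cell NPM libraries, and 11 and 49 in those of Oli-neu. As a share of its interactions this was 42.1% ± 6.32 (SD, n = 3) in mESC 1FA, 64.9% ± 2.13 (SD, n = 3) in mESC 2FA, 38.8% ± 3.43 (SD, n = 3) in mOPC 1FA, 23.7% ± 0.767 (SD, n = 2) in mESC ActD4, 24.9% ± 10.1 (SD, n = 2) in mESC NPM and 3.72% ± 3.03 (SD, n = 2) in mOPC NPM. The shares in 2FA lay above all others and those in mOPC NPM below all others, while the mESC NPM libraries, at 17.7% and 32.1%, differed widely from each other. In CPM the means ran the other way for 2 groups, 433 in mESC ActD4 and 462 in mESC NPM against 142 in mESC 1FA.

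Few RNAs were found as often at this sequence. With replicates pooled, Rmrp was first of all RNAs in the bin in mOPC 1FA with 8.43% of its contacts, rank 2 in mESC 2FA (5.81%) and mESC NPM (1.23%), rank 4 in mESC 1FA (3.47%) and mESC ActD4 (5.34%), and rank 12 in mOPC NPM (0.729%). The first place in mOPC 1FA rests on replicate 3, since Rmrp had rank 2 in the other replicates. The RNAs ahead of it in the crosslinked stem cell libraries were Snord118, Snord13 and Rnu3a, which also act on ribosomal RNA precursors. Rnu3a had 75.0% of its interactions in the bin in mESC 1FA, 37.3% in mESC ActD4 and 34.2% in mESC NPM. For comparison, Malat1, a nuclear RNA of splicing speckles, had 0.435% in mESC 1FA and 5.60% in mESC NPM. Rn7sk had 63.6% of its interactions there in mESC 1FA, above the share of Rmrp, and 2.54% in mOPC 1FA, below it.

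All 82 contacts of Rpph1 lay in the same bin, 23, 24, 27 and 8 of them in mESC 1FA, mESC 2FA, mESC NPM and mOPC 1FA, with no other pair listed. Its rank in the bin was 187, 151, 248 and 285, where a library listed 1040 to 1086, 633 to 658, 2094 to 2164 and 303 to 322 RNAs. The bin is not particular to these RNAs. In mESC 1FA up to 1031 other RNAs in a library were listed with it in trans, where 1048 transcripts had any trans contact. Rny1 and Rnu3b3 also had 100% of their interactions there in mESC 1FA. Of the 82 DNA tags, 57 lay in Gm26917 and 16 in the 18S gene.

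Within the bin, the DNA tags of Rmrp fell at chr17:39843023-39848817 and were spread over the same features as those of other RNAs. Tags of Rmrp were counted by exact position, and those of other RNAs by 250-bp windows, each given to the feature holding its centre. The shares are thus unlike measures at the edges of a feature, and how much of their difference this makes was not tested. No difference between Rmrp and other RNAs is read from them. In mESC 1FA 74.7% lay in Gm26917, upstream of the 18S gene, against 68.4% for other RNAs in trans, and 8.53% in the 18S gene against 15.5%. In mOPC 1FA the same shares were 74.4% against 67.8% and 10.1% against 16.9%. In mESC NPM the tags shifted toward the 18S gene for Rmrp (34.8%) and for other RNAs (39.8%) alike, with 42.4% and 42.0% left in Gm26917. In mOPC NPM the 18S gene held 26.7% of the 60 tags of Rmrp against 20.6% for other RNAs, and Gm26917 56.7% against 64.3%. A single window of 250 bp held 26.7% of the Rmrp tags there and 10.2% of the others.

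**Figure D3:**
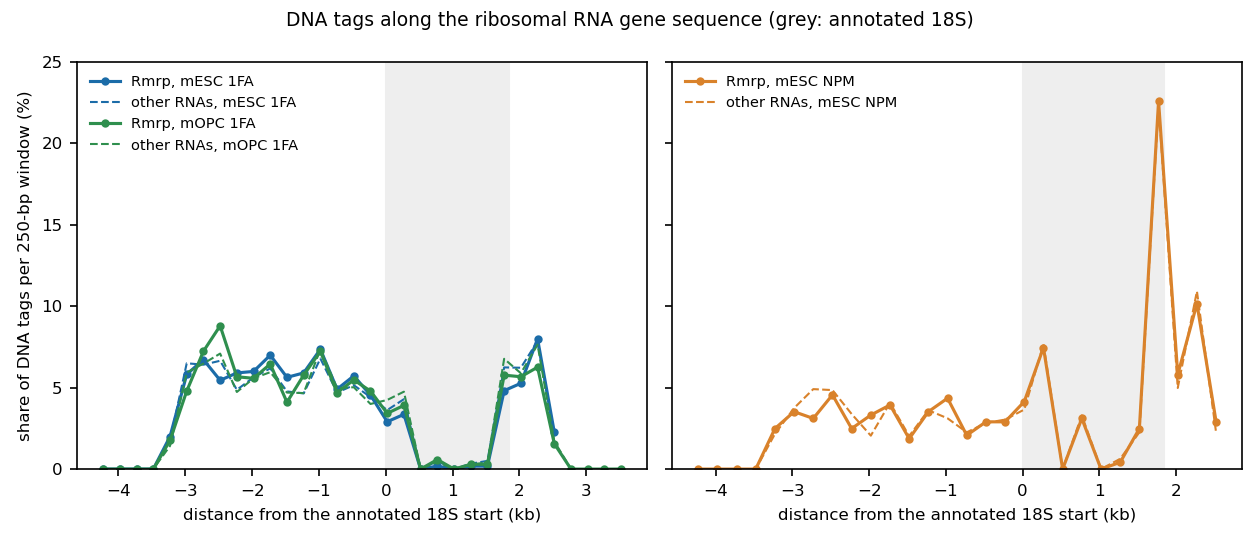
Share of DNA tags (%) in 250-bp windows along the ribosomal RNA gene sequence, by distance from the annotated start of 18S (kb; grey marks 18S), for Rmrp (points, solid lines) and all other RNAs in trans (dashed), replicates pooled. In mESC 1FA and mOPC 1FA most tags lie upstream of 18S, and in mESC NPM 1 window near the end of 18S holds 22.6% of Rmrp tags and 22.3% of those of other RNAs.

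Beyond these places, Rmrp contacts were thin and seldom shared between groups. It was listed with 116 bins in mESC 1FA, 37 in mESC 2FA, 89 in mESC ActD4, 32 in mESC NPM, 135 in mOPC 1FA and 68 in mOPC NPM, 393 different bins in all. Of these, 342 were listed in 1 group only and held 3449 interactions, and 5 were listed in all 6 groups and held 6890. The smallest listed trans pair had 7 to 10 interactions over the replicates, against a median of 9 to 11, and of 19 in mESC NPM, so outside mESC NPM many pairs lay near the limit of listing.

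The 5 bins listed in every group were the ribosomal RNA gene bin, the bin of Rmrp itself, a pair of neighbouring bins on chromosome 11 and the mitochondrial genome. The first of that pair (chr11:3150001-3175000, in Sfi1, a centrosome gene) held 51, 39, 16, 57, 17 and 33 interactions in the order mESC 1FA, 2FA, ActD4, NPM, mOPC 1FA and NPM. The next (chr11:3175001-3200000, Sfi1 and Drg1) held 37, 28, 14, 45, 14 and 25. The first bin was also listed with 50 other RNAs in trans in mESC 1FA and with 169 in mOPC NPM, so that it is not particular to Rmrp. The methods state that contacts in blacklisted mm10 regions had been removed, and whether the Sfi1 bins lie near such regions was not tested. The mitochondrial genome held 11, 23, 14, 60, 29 and 25, of which 52 of the 60 in mESC NPM came from replicate 1, a library whose labels also enter a resequenced run.

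In the bin chr11:109000001-109025000 no DNA tag of Rmrp fell in an annotated gene. The bin was the second in trans after the ribosomal one in mESC 1FA, mESC 2FA and mOPC 1FA (54, 66 and 44 interactions). It held 88 in mESC NPM and 11 in mOPC NPM, and was absent after actinomycin D. It is not particular to Rmrp: up to 29 other RNAs in a library were listed with it in trans in mESC 1FA and 96 in mESC NPM. Contacts of other RNAs with it numbered 58, from up to 4 RNAs, after actinomycin D and 480 in mESC 1FA. These are counts from libraries of unlike size, 251802 to 418781 interactions in mESC ActD4 and 2441619 to 2832717 in mESC 1FA. No fall for other RNAs is read from them. A bin in Cdk8, a kinase of the Mediator complex (chr5:146250001-146275000), held 20, 25, 22 and 14 in mESC 1FA, 2FA and NPM and mOPC 1FA. Another Sfi1 bin (chr11:3125001-3150000) was listed in the 4 stem cell groups only, with 19, 13, 13 and 22. The bin of the 5.8S-like gene n-R5-8s1 held 58 interactions in mESC NPM, 49 of them from replicate 1, 11 in mESC 2FA and 9 in mOPC 1FA. The Malat1 bin was listed in both NPM groups (22 and 21) and in no other. Other RNAs in trans were listed with these bins too, in a library up to 149 with the n-R5-8s1 bin in mESC NPM. The Malat1 bin had up to 79 in mOPC NPM and the Cdk8 bin up to 9 in mESC 1FA.

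Contacts on chromosome 4 outside the gene's own bin were few: 28 in 3 bins in mESC 1FA, 48 in 5 bins in mESC ActD4 and 8 in 1 bin in mOPC 1FA, at 13661 kb or more from Rmrp, and none in the other groups. The trans contacts outside the ribosomal bin were 1284, 551, 811, 701, 1437 and 832 by group, and 60.7%, 51.5%, 87.4%, 67.7%, 69.6% and 77.0% of them fell in annotated genes.

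By chromosome, these remaining trans contacts differed between the lines. The first 45 Mb of chromosome 5 took 57.6% to 63.5% of them in the mOPC 1FA libraries and 78.0% to 80.6% in mOPC NPM, 0 in mESC 1FA, 2FA and NPM, and 0.987% to 1.18% in mESC ActD4. Other RNAs, without Malat1 and Gm22973, had 33.9% to 35.5% of theirs there in mOPC 1FA and 62.3% to 66.7% in mOPC NPM, so other RNAs too had large shares there in this line, and Rmrp had larger ones. An example is the bin of Ppp1cb, a subunit of protein phosphatase 1 (chr5:32450001-32475000), with 28 and 12 interactions in mOPC 1FA and NPM. Chromosome 8 took 36.3% and 41.8% in mESC ActD4, against 27.8% to 28.1% for other RNAs. In mESC 1FA it took 10.8% to 13.2% of the Rmrp contacts (other RNAs 9.37% to 16.6%), in mESC 2FA 2.96% to 7.89% (10.4% to 17.5%) and in mESC NPM 10.0457% to 13.3% (1.14% to 3.09%). Chromosome 11 took 30.1% to 34.5% in mESC 2FA and 16.8% to 17.6% in mESC ActD4, where other RNAs had 12.5% to 26.5% and 2.87% to 3.63%. In mESC 1FA Rmrp, at 19.6% to 19.9%, lay within the range of other RNAs (11.97% to 22.8%). It lay below them in mOPC 1FA (5.50% to 6.37% against 13.2% to 14.4%) and in mOPC NPM (7.23% and 9.05% against 13.2% and 12.4%). In mESC NPM the ranges overlapped (27.2% and 35.4% against 27.7% and 54.2%), with nearly equal shares in replicate 1. Differences in copy number between lines were not tested.

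**Figure D4:**
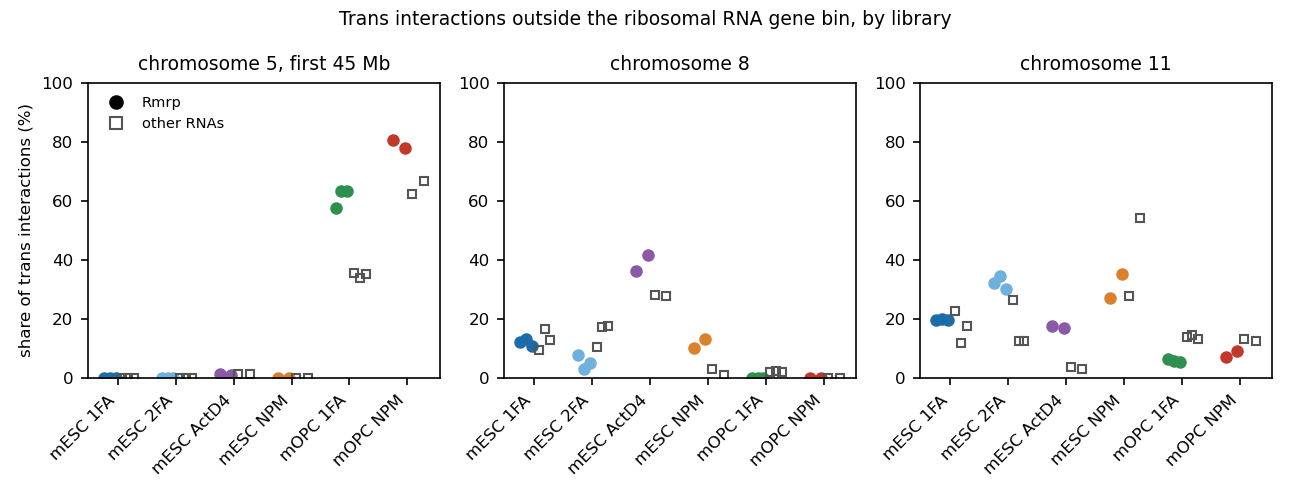
Share (%) of trans contacts outside the ribosomal RNA gene bin that fall in the first 45 Mb of chromosome 5, on chromosome 8 and on chromosome 11, for Rmrp (filled points, 1 a library) and other RNAs (open squares) by group. In the mOPC libraries 57.6% to 80.6% of the Rmrp contacts lie in the first 45 Mb of chromosome 5.

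RNA tags of Rmrp came mainly from its 3′ end, the stretch in capitals in the sequence above. The last 30 nt held the centres of 54.7% to 68% of tags in the mESC 1FA libraries, 43.3% to 59.7% in mESC 2FA, 56.1% to 57.1% in mESC ActD4 and 63.0% to 65.6% in mOPC 1FA. In NPM the range was 84.1% to 86.7% in mESC and 78.1% to 91.7% in mOPC, above every other library. The most frequent positions were 261, 262, 260 and 267, and smaller peaks stood at 57 (383 tags) and 164 (343 tags). The window from 51 to 60 held 7.48% to 9.37% of tags in mESC 1FA and 6.21% to 9.10% in mOPC 1FA, but 0.0891% to 0.226% in mESC NPM and 0.239% to 1.29% in mOPC NPM. The window from 161 to 170 held 4.26% to 12.4% in mESC 1FA and 0.339% to 0.535% in mESC NPM. In mOPC 1FA it held 2.43%, 3.01% and 5.03%, and in mOPC NPM 2.14% and 0.359%, of which the first is close to the lowest mOPC 1FA library.

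The 3′ end led at every kind of target. At the ribosomal bin the last 30 nt held 50.96% to 60.5% of tags in mESC 1FA and 86.9% to 87.7% in mESC NPM. At other trans bins they held 57.5% to 71.3% and 88.4% to 91.6%. In mESC 2FA the shares were 38.3% to 56.5% at the ribosomal bin and 51.7% to 65.1% at other trans bins. In mOPC 1FA the ribosomal bin had 51.2% to 53.1% and other trans bins 68.7% to 73.1%, with no overlap between libraries. The order was the reverse in mESC ActD4, with 58.0% and 59.8% at the ribosomal bin against 55.2% and 53.3%. An adapter can be joined only to an RNA end, and in this protocol RNase H is applied before ligation, so tag positions show where ends were available as well as which part lay near DNA, and these cannot be told apart.

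DNA tags inside the Rmrp gene lay at its other end. Counted from the 5′ end of the RNA, the first 100 nt held 73.8%, 71.1%, 63.9%, 76.8%, 68.6% and 78.1% of them by group (mESC 1FA, 2FA, ActD4, NPM, mOPC 1FA, NPM; 145, 173, 72, 823, 156 and 644 tags), with the most frequent position at 28 or 33. The median distance between the RNA tag and the DNA tag was 153.5 to 206 nt, and the DNA tag lay toward the 5′ end from the RNA tag in 86.1% to 96.1% of these interactions. The 5′ end of the gene thus led in NPM and crosslinked groups, although the number of such contacts differed.

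**Figure D5:**
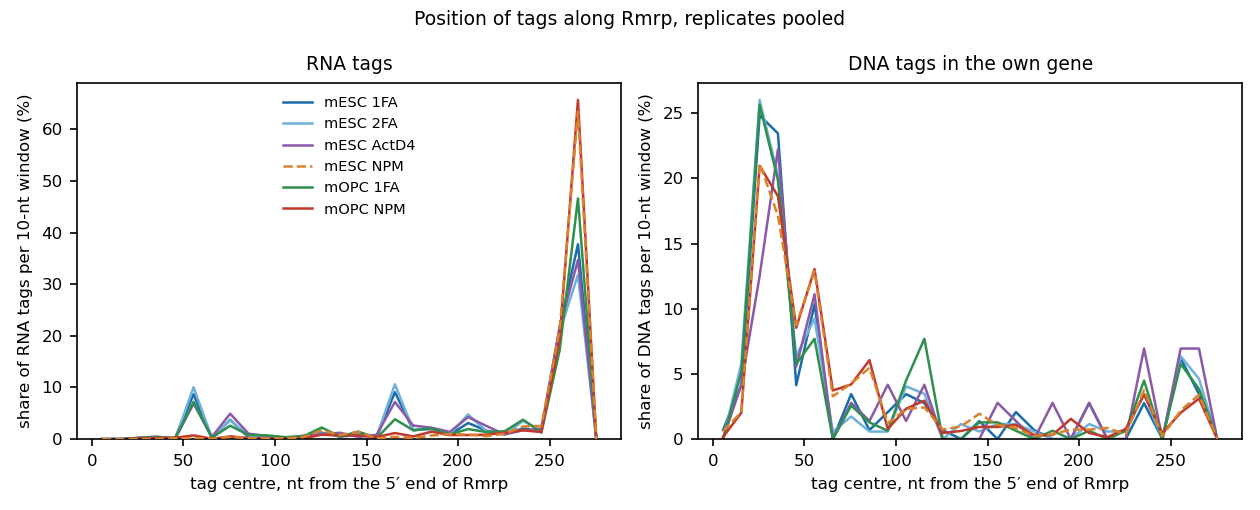
Position (nt from the 5′ end of Rmrp) of RNA tag centres, left, and of DNA tags inside the Rmrp gene, right, as the share (%) of tags per 10-nt window, replicates pooled, 1 line a group (mESC NPM dashed). RNA tags peak near position 261 and DNA tags near positions 28 to 33 in all groups.

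The Rmrp gene was also contacted by other RNAs in the NPM libraries: 119 and 40 interactions in mESC NPM and 37 and 49 in mOPC NPM, with Malat1 the most frequent source in each, against 0 to 11 in every crosslinked library. These compare with 338 to 485 and 301 to 343 contacts of Rmrp with its own gene. The Rpph1 gene received 3 interactions in each mESC NPM library, from Dpp8, at most 1 in each mESC 2FA library and none in the rest, and none from Rpph1 itself.

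RNA tags of Rpph1 clustered in the middle of the RNA, in and just after its stretch in capitals. Of the 82 tags, 55 had their centre between positions 141 and 160 and 15 in the last 30 nt. In mESC 1FA these were 18 and 2 of 23, in mESC 2FA 19 and 1 of 24, in mOPC 1FA 5 and 1 of 8, and in mESC NPM 13 and 11 of 27. The share at the 3′ end in mESC NPM, 35.7% and 46.2%, was thus above the 0 to 25% of the other libraries, as it was for Rmrp, though on few tags. All 82 tags in the Rpph1 span had been given to Rpph1 and none to the overlapping Ccnb1ip1. In the Rmrp span 7 tags of the opposite strand had been given to Ccdc107.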

How the data were processed

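RADICL-seq libraries of 2 mouse cell lines were used, with biological replicates that the methods define as batches of cells of different passage number. Each replicate is entered as an RNA and a DNA sample, and mESC NPM replicate 1 also as a resequenced pair of samples, for which the labels name no table of their own; whether its table includes that run is not given in the sources used here. Per the labels and methods, the authors sorted RNA and DNA tags by the adapter, mapped them to mm10 with BWA 0.7.15-r1140 (CASAVA 1.8 is also named), assigned tags to genes and 25-kb bins, and kept pairs of transcript and bin that passed a binomial test. The deposited tables hold 1 line per interaction with the p-value and adjusted p-value of its pair, called over pooled replicates. No table of counts was used. The RNA position, DNA position, gene and bin of each line were read, positions were taken as 0-based and written 1-based, and copies of an interaction were merged.

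Interactions per transcript and library were counted. Transcripts with at least 10 interactions, scaled to the median library, in as many libraries as the smaller group has, and at least 15 in all, were tested with limma 3.58.1 (R 4.3.3) on log2 CPM with a prior count of 0.5, TMM scaling (trim 0.3 and 0.05) and an intensity trend, called at adjusted p under 0.05. The fit used the libraries of the groups compared, or all 4 groups for the interaction term. The prior count can understate the change of sparse transcripts, and it raises them more in small libraries. Rpph1, at 0 interactions in mESC ActD4 replicate 2, was thus given a log2 CPM of 0.854. In mOPC 1FA replicate 1, with 2 interactions, its value was 0.719. Shares of Rmrp were compared by two-sided exact permutation tests (SciPy 1.17.1) over libraries with at least 20 interactions. In simulated data over 6 fits, changes of 2 on the log2 scale were recovered in 83 to 99% and changes of 1 in 0 to 46%, with 1.14 to 11.2% and 0 to 33.3% of calls false. The simulation changed 200 transcripts at a fixed dispersion of 0.05 with independent replicates. In the real data most comparisons called far more, and pairs were listed on pooled replicates, so these rates may not hold there. Same-numbered libraries of mESC 2FA and mESC 1FA deviated together (r = 0.502, 0.390 and 0.583), so their numbers pair them. Annotation was GENCODE M21 and RefSeq on GRCm38.p6, the same build, and 99.8% of Ensembl identifiers matched. Members, lists and the ribosomal bin were chosen with earlier results of these data known. Named genes were both members and at most 5 of each list by interactions (Rpp25 and Nkx2-2, outside this rule, were named after their values were seen), and bins the 5 most contacted in trans per group or listed in 3 or more groups, of which a part is named.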

Additional observations from a re-analysis of the deposited data

Results flagged for a closer look

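The effect of NPM on the capture of Rmrp differed between the lines by -2.23 on the log2 scale (mOPC minus mESC, SE 0.44, limma interaction term, adjusted p = 0.00252), and was picked out because the term tests the difference itself. It remained past the threshold without any single library (-2.58 to -1.88), but not when each RNA's own 25-kb bin was left out (-0.85, adjusted p = 0.231). For Rpph1 the same term was -5.38 (SE 0.66, adjusted p = 8.82e-05). Rpph1 is listed at 0 in both mOPC NPM libraries, a listing decided on pooled replicates. This value, its SE and its adjusted p thus depend on the listing and the prior count (-3.84 with a prior count of 2). They are neither a measured fold nor a test of one.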

How the results depend on the processing

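Of the 83 other settings of Rmrp capture that left no library out, 74 kept direction and call, as did all 35 of Rpph1. For Rpph1 the settings of comparisons with mOPC NPM follow from its listing at 0 there. Rmrp lost its call for mOPC 1FA minus mESC 1FA by library totals (0.32) and, outside own bins, for mOPC NPM minus mESC NPM (-0.34) and the interaction term (-0.85). It turned sign for 2FA minus 1FA at pairs with adjusted p under 0.001 (0.38) and for mOPC NPM minus mOPC 1FA by totals (0.65), with a replicate block (0.12), every line counted (0.85, adjusted p = 0.0244), outside own bins (3.50) and copies kept (0.44). The last of these, and the bins listed in every group below, were chosen after seeing the data. Own-bin interactions are removed from all transcripts by construction; otherwise the cause was not tested. Copies raised the Rmrp count in NPM from 1122, 886, 700 and 836 to 2340, 1413, 1095 and 1380.

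Transcripts called numbered 7858 for mOPC 1FA minus mESC 1FA (11805 with no filter), 6139 for mOPC NPM minus mESC NPM (10250 with no filter, 908 outside own bins), 6270 for mESC NPM minus mESC 1FA (2881 outside own bins) and 6790 for mOPC NPM minus mOPC 1FA (3382 outside own bins). For 2FA minus 1FA they were 3, and 2092 with no filter, 568 with the replicate block (paired), 21 with every line, 5 at the stricter p, 38 outside own bins and 22 with all 15 libraries in one fit. The block changed no other call of Rmrp or Rpph1. Scaling by totals moved the share of calls that were higher from 43.2% to 32.4% (mOPC 1FA minus mESC 1FA), from 47.4% to 82.4% (mESC NPM minus 1FA), from 57.1% to 90.6% (mOPC NPM minus 1FA), from 54.4% to 38.2% (mOPC NPM minus mESC NPM) and from 59.8% to 73.7% (interaction). A prior count of 2 moved it from 59.8% to 42.2% for the interaction, turning the majority, and from 36.1% to 50.4% for ActD4. The upper quartile moved it from 36.1% to 49.3% for ActD4 and from 47.4% to 57.7% for mESC NPM minus 1FA.

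Among values that kept direction and moved by over 1.5 times were Rmrp capture in mESC NPM minus 1FA (1.90) outside own bins (5.02) and with every line (3.21), in ActD4 (2.30) outside own bins (3.05), that of Rpph1 in mESC NPM minus 1FA (2.58) outside own bins (6.36), and the share differences, in points, of 2FA minus 1FA without the ribosomal bin (trans -12.4, own gene 13.8) and with every line (-4.73, 5.59), NPM within line with every line (-60.6, 61.2) and in bins listed in every group (-54.5, 54.8), and, for trans in those bins, mOPC NPM minus mESC NPM (-26.0) and lines within condition (-15.2). At the stricter p these last 2 were -14.0 and -6.95.

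Differences in the shares of Rmrp that turned sign were, in points and none past the adjusted threshold, as follows. With each pair counted once, trans gave 0.380 (2FA minus 1FA), 0.0610 (mESC NPM minus 1FA), 1.63 (mOPC NPM minus mESC NPM) and 1.76 (lines within condition), own gene -0.0938 (mOPC 1FA minus mESC 1FA), 0.260 (ActD4), -1.63 and -0.863, and within 1 kb -0.0938, -1.63 and -0.863. Without the ribosomal bin, trans gave 10.4 and 5.86 for the NPM libraries of the lines and the lines within condition, own gene -10.3 and -4.95, and within 1 kb -10.3 and -4.96, with -2.25 for ActD4. At the stricter p, trans gave 0.0520 and own gene -0.0141 for 2FA minus 1FA, and own gene 5.75 for ActD4. With every line, trans gave -0.857 for mOPC 1FA minus mESC 1FA and within 1 kb -1.19 for ActD4. In bins listed in every group compared, trans gave -1.78 (mOPC 1FA minus mESC 1FA) and 0.168 (2FA minus 1FA), own gene -0.123 and 5.13 (2FA minus 1FA, ActD4), and within 1 kb -0.0817.

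Leaving out each library in turn, Rmrp capture ran from 0.47 to 0.98 (mOPC 1FA minus mESC 1FA), from -0.32 to 0.0719 (2FA), from 2.16 to 2.51 (ActD4), from 1.55 to 2.26 (mESC NPM minus 1FA), from -0.41 to 0.0757 (mOPC NPM minus 1FA), from -1.57 to -0.82 (mOPC NPM minus mESC NPM) and from -2.58 to -1.88 (the interaction). That of Rpph1 ran from 2.34 to 3.08 (mESC NPM minus 1FA), from -5.72 to -5.55 (mOPC NPM minus mESC NPM) and from -5.88 to -5.11 (the interaction), of which the last 2 are set by the prior count and are no measured folds. Transcripts called ran from 7617 to 8267 (mOPC 1FA minus mESC 1FA), from 0 to 32 (2FA), from 4953 to 6844 (ActD4), from 4921 to 6301 (mESC NPM minus 1FA), from 3979 to 6769 (mOPC NPM minus 1FA), from 4830 to 7091 (mOPC NPM minus mESC NPM) and from 3312 to 4944 (the interaction). The difference in trans share ran from -1.02 to 1.99 (mOPC 1FA minus mESC 1FA), from -2.91 to -0.642 (2FA), from -4.28 to -2.01 (ActD4), from -36.1 to -31.1 (mESC NPM minus 1FA), from -42.2 to -29.2 (mOPC NPM minus 1FA), from -8.26 to 4.74 (mOPC NPM minus mESC NPM), from -37.9 to -31.4 (NPM within line) and from -3.94 to 2.56 (lines within condition). That in the own-gene share ran from -1.18 to 1.81 (mOPC 1FA minus mESC 1FA), from 1.60 to 3.74 (2FA), from -0.949 to 1.19 (ActD4), from 32.3 to 37.4 (mESC NPM minus 1FA), from 29.6 to 42.5 (mOPC NPM minus 1FA), from -4.68 to 8.31 (mOPC NPM minus mESC NPM), from 32.2 to 38.7 (NPM within line) and from -2.04 to 4.46 (lines within condition). That within 1 kb ran from -1.17 to 1.79 (mOPC 1FA minus mESC 1FA), from 1.68 to 3.78 (2FA), from -0.841 to 1.25 (ActD4), from 32.3 to 37.3 (mESC NPM minus 1FA), from 29.5 to 42.5 (mOPC NPM minus 1FA), from -4.68 to 8.31 (mOPC NPM minus mESC NPM), from 32.2 to 38.7 (NPM within line) and from -2.04 to 4.45 (lines within condition). Depth limits Rpph1, with at most 14 interactions in a library.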
